A study of Mus musculus with 41 samples.

Results

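The 150 transcripts described here lost the largest part of their relative level within 2 h of α-amanitin in wild-type (WT) mouse embryonic stem cells (ESCs). They were chosen from measured values. Levels are counts per 1000000 counts of a library (CPM), that is, a gene's share of its library. Of 51410 gene identifiers in the count tables, 11223 averaged at least 5 CPM in the 4 WT libraries at 0 h, and 10639 remained once genes whose names begin with Hox, Zfp, Gm and a digit, Rps or Rpl, mt- or Hist were set aside. The 150 members are those with the lowest log2 ratio of the mean WT level at 2 h over the mean WT level at 0 h, with 0.5 CPM added to both. That ratio, and every other measure that uses a WT library of 0 h or 2 h, therefore describes the choice and has no test.

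RNA-seq covered 31 libraries of 3 lines, namely clone 2 and clone 4, both labelled Caprin1 knockout, and WT cells, which the protocol names as R1. CAPRIN1 is a cytoplasmic RNA-binding protein found in stress granules. Cells of all lines first spent 4 days without LIF and with 1 µM retinoic acid, a signal that starts differentiation, and then received 2 µg/ml α-amanitin, with harvests at 0, 2, 4 and 8 h. Clone 2 had 2 libraries at each time, clone 4 had 1 at 0 h and 2 at each later time, and WT had 4 at each time. Each clone is a single line, so a difference of a clone from WT cannot be told apart from one that any separate line could show.

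α-Amanitin binds RNA polymerase II, the enzyme that makes messenger RNA, and slows it to a near stop. An mRNA that is no longer made falls at the pace of its own decay, and mRNAs of transcription factors, signalling inhibitors and enzymes under feedback control are known to be short-lived. Neither the block of synthesis nor the amount of RNA per cell was measured in these files. All levels are relative to the rest of a library's RNA, and in such bulk samples fewer cells of a type and less RNA per cell cannot be told apart.

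Library totals ranged from 3460172 to 31565738 counts, with the shallowest in WT replicate 2 at 4 h. Depth was mostly greatest at 0 h. Clone 2 had 31565738 and 18855323 counts at 0 h, against 7863237 to 10566579 later. Clone 4 had 19489723 at 0 h, against 6742868 to 10244834 later. WT had 3953468, 22182479, 22684394 and 11865771 at 0 h, against 3460172 to 9412958 later. Comparisons with 0 h, the ranking among them, thus mostly set deeper libraries against shallower ones, and the part of depth was not tested. Caprin1, the targeted gene, had 104 to 174 CPM in the clone 2 libraries, 971 to 1169 CPM in the libraries labelled clone 4 and 834 to 1204 CPM in WT, so the transcript was low in clone 2 and overlapped WT in clone 4. WT replicates 1 and 2 resembled each other more than replicates 3 and 4 at 0 h and 8 h, and WT replicate 1 stood apart at 4 h. ESC markers (8 of 8 at 1 CPM or more in every line) were present beside genes of cells exposed to retinoic acid (8 of 8, with Cyp26a1 and Dhrs3 among them). The 9 markers of parietal endoderm, of which Sox7 is one, were all detected and summed at 0 h to 57177 to 58471 CPM in clone 2 and 25099 CPM in clone 4, against 16153 to 18270 CPM in WT. The 10 fibroblast feeder markers summed to 914 to 924 CPM in clone 2 and 3224 CPM in clone 4, against 1034 to 1581 CPM in WT. Mitochondrially encoded genes took their largest share of counts at 4 h in clone 2 (1.78% and 1.78%) and in WT (1.18% to 1.34%), against 0.791% and 0.826% in clone 2 and 0.376% to 0.831% in WT at 0 h. In clone 4 the share was largest in the single library of 0 h (1.33%), above every other library of 0 h. Its later libraries had 0.967% and 0.936% at 2 h, 1.32% and 1.19% at 4 h, and 0.827% and 1.27% at 8 h. The part of these differences in the results below was not tested. Leaving the mitochondrial genes out of the fit changed 0 of 192 single member calls. Those genes made up at most 1.78% of counts, so that fit cannot test the state of cells or RNA behind their share.

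The members were mostly scarce transcripts. Their median WT level at 0 h was 13.1 CPM (range 5.14 to 391 CPM; 54 members were under 10 CPM), against 42.4 CPM for the other 10489 genes that passed the same filters. At the head of the ranking stood Ppp1r3c (log2 ratio -2.34), a subunit that brings protein phosphatase 1 to glycogen, Dhrs3 (-1.68), which reduces retinal to retinol, Ppp1r3b (-1.62), another glycogen-targeting subunit, Arl4d (-1.61), a small GTPase, and Ddit4 (-1.57), an inhibitor of the growth kinase mTORC1. After them came Gata5 (-1.56), a transcription factor of heart and endoderm, Ciart (-1.55), a repressor of the circadian clock, and the homeobox gene Dlx3 (-1.53). The border of the set was gradual. Just inside lay Helz2 (-0.83), Vegfa (-0.83), Arhgap30 (-0.83), Sec14l5 (-0.83) and Runx3 (-0.83), and just outside Grasp (-0.82), 9930012K11Rik (-0.82), Cdc42ep2 (-0.82), Hdac10 (-0.82) and Zscan10 (-0.82). Leaving out any 1 of the 8 WT libraries behind the ranking kept 125 to 137 of the 150. The same rule applied to clone 2 kept 54 of them, applied to clone 4 it kept 52, and 31 were chosen in all 3 lines, where 150 genes made up 1.46%, 1.44% and 1.41% of those ranked in clone 2, clone 4 and WT.

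As a share of each library the members fell and then partly came back. In clone 2 they took 0.377% and 0.394% of all counts at 0 h, 0.226% and 0.229% at 2 h, 0.207% and 0.211% at 4 h, and 0.249% and 0.252% at 8 h. In clone 4 the single library at 0 h gave 0.333% (95% Wilson interval 0.331% to 0.336%, counting error only). Its later libraries gave 0.193% and 0.198% at 2 h, 0.162% and 0.167% at 4 h, and 0.219% and 0.221% at 8 h. In WT the share was 0.406% to 0.467% at 0 h, 0.195% to 0.207% at 2 h, 0.165% to 0.181% at 4 h and 0.234% to 0.244% at 8 h. In all 3 lines the lowest share was at 4 h, and the libraries of 8 h lay above those of 4 h and below those of 0 h without overlap. The median member stood at 61.6% of its 0 h level at 2 h in clone 2, 43.3% at 4 h and 76.4% at 8 h. In clone 4 these medians were 63.0%, 50.1% and 84.0%, and in WT, where the choice fixes the first, 48.9%, 41.4% and 66.8%. The other genes stayed between 89.2% and 99.1% at the median in the 3 lines.

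**Figure D1:**
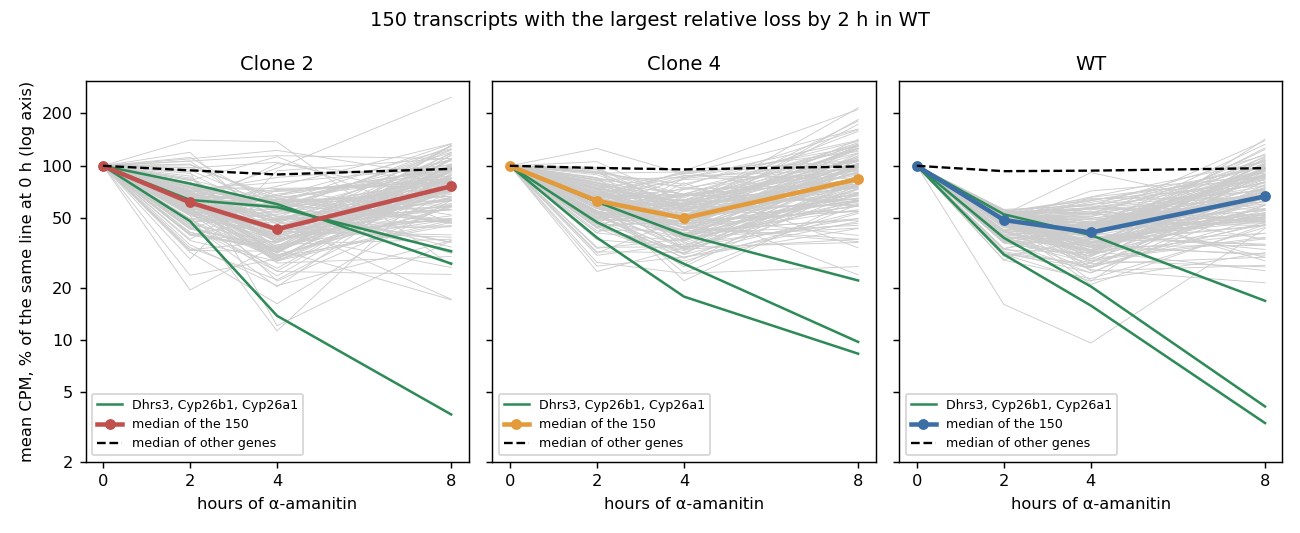
Mean CPM of each of the 150 members (grey lines) as a percentage of the same line's 0 h mean, on a log axis, against hours of α-amanitin, in clone 2, clone 4 and WT; thick lines are the members' medians, dashed lines the median of the 10489 other genes, and green lines Dhrs3, Cyp26b1 and Cyp26a1. The median is lowest at 4 h in each line and reaches 76.4%, 84.0% and 66.8% at 8 h, while the 3 green lines go on falling.

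The 150 members made up 1.41% of the 10639 genes ranked, so by that share alone a short gene list would hold few or none. The counts by list are therefore descriptions. Of 21 immediate early and AP-1 genes that passed the level filter, 0 were members and 19 had a WT ratio above 0 (median log2 0.91), and Egr1, an immediate early transcription factor, averaged 205 ± 12.7 CPM at 2 h, against 14.9 ± 2.34 CPM at 0 h (SD, n = 4 each). Members were likewise 0 of 20 Klf and Sp factors, 0 of 19 genes of ERK feedback, 0 of 11 of the Myc network and 0 of 18 pluripotency genes that passed that filter. The lists with most members were retinoic acid response with 5 of 27 (Dhrs3, Cyp26a1, Cyp26b1, Rarg and Gbx2), germ layer and lineage transcription factors with 4 of 36, and the integrated stress response with 3 of 15 (Ddit4, Trib3 and Vegfa).

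Features that the ranking did not use are given here as descriptions, with no test. The genomic span of a member was 12820 bases at the median (149 matched to the annotation), against 26687 bases for the others, and 40.3% of members spanned under 10000 bases, against 21.5%. The authors' gene lists from CAPRIN1 RNA immunoprecipitation carry no values or direction. The list named CNT vs RA held 8.67% of members, against 18.7% of the other genes, and the list named 2I vs RA held 10.7%, against 20.4%. The 6 members on both were Pitx1, Ahdc1, Kcng1, Sall2, Cyp26a1 and Helz2. The other genes were also more abundant (median 42.4 CPM), and the part of abundance in the listing was not tested. In 158 RefSeq promoter windows of 300 bases, which cover 118 members, the letters GGGCGG stood on either strand of 64.6% of windows, against 66.2% of the windows of other genes that passed the filters and 35.7% of all 32851 windows. TATAAA stood in 6.33%, against 6.58% and 13.6%, and CACGTG in 6.33%, against 10.5% and 7.15%.

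Whether the same transcripts also fell in the clones was asked in libraries that the ranking had not used. In clone 2, edgeR's quasi-likelihood test with Benjamini-Hochberg adjustment over 15850 genes, at a false discovery rate (FDR) under 0.05, called 84 of the 150 lower at 2 h than at 0 h. Of all genes tested, 5.81% were called lower and 11.8% either way. In clone 4 it called 61 lower, where 2.75% of all genes were lower and 6.32% changed either way. Members called higher numbered 0 in each clone, also at an unadjusted p under 0.05 and with DESeq2, where 6.04% of all genes in clone 2 and 3.57% in clone 4 were called higher. The median log2 change of the members was -0.65 in clone 2 and -0.62 in clone 4, against -0.03 and -0.00 for all genes tested. Both clones called 50 of the same members lower, clone 2 alone 34, clone 4 alone 11, and 137 had a log2 change below 0 in both. The matching shares of all genes for both clones together are not given here. With 1 library at 0 h, the clone 4 test borrows its spread from the other groups. That library could not be left out, so the clone 4 fits without 1 library dropped only those of 2 h. Without 1 library the counts were 50 (without clone 2 replicate 1 of 2 h) to 67 in clone 2, with 55 without replicate 2 of 2 h, and 37 in clone 4 without either library of 2 h, and 39 and 28 members were called in every such fit. Nothing in the labels says that libraries came from separate cultures, so p-values measure the spread between these libraries, which may be technical.

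**Figure D2:**
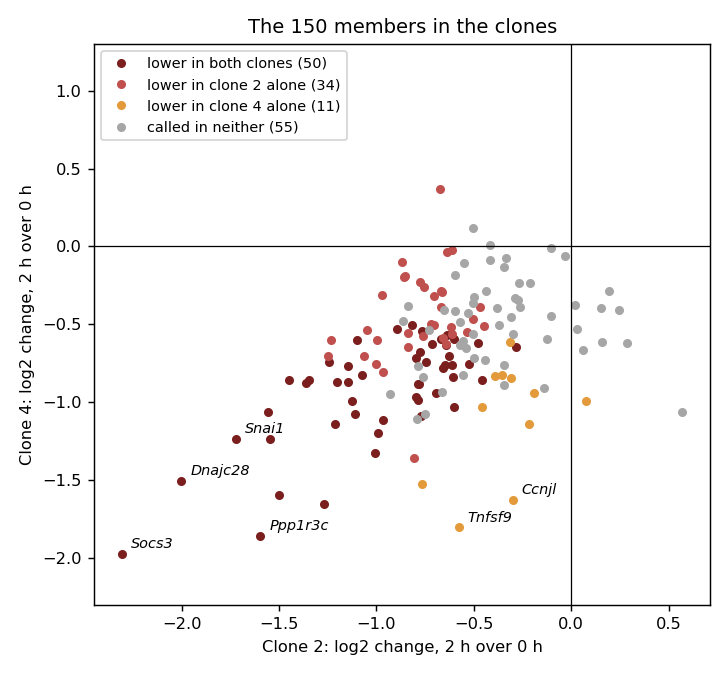
Log2 change from edgeR at 2 h over 0 h of α-amanitin for each of the 150 members, with clone 2 on the horizontal and clone 4 on the vertical axis; colours mark members called lower in both clones (50), in clone 2 alone (34), in clone 4 alone (11) or in neither (55). Most points lie below 0 on both axes, with Socs3 farthest from 0 in both clones.

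A direct test of the difference between the clones in this change called 1 member, where 0.177% of all genes had a more negative change in clone 4, 0.208% a more positive one and 0.385% either. Ccnjl, a cyclin-like gene, had 4.27 and 5.78 CPM at 2 h in clone 4, against 16.0 CPM in its library of 0 h, and 3.23 and 5.21 CPM at 2 h in clone 2, against 5.23 and 5.57 CPM at 0 h. The libraries of 2 h overlapped between the clones, while clone 4 began higher. The log2 change was more negative in clone 4 (difference -1.33, SE 0.315, FDR 0.0473, edgeR with Benjamini-Hochberg adjustment). The call was lost without clone 2 replicate 1 (FDR 0.164) or 2 (FDR 0.101) of 0 h, clone 2 replicate 2 of 2 h (-0.95, FDR 0.512), or clone 4 replicate 1 (FDR 0.276) or 2 (FDR 0.0609) of 2 h.

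The genes that remove retinoic acid kept falling to 8 h. Dhrs3, Cyp26a1 and Cyp26b1 remove retinoic acid or its precursor, the CYP26 enzymes by oxidising it, and retinoic acid itself is known to induce their genes. Dhrs3 (ENSMUSG00000066026.14; GRCm38.p6 chromosome 4, 144892534 to 144928209) had 61.0 and 46.5 CPM in clone 2 at 0 h, 32.9 and 35.6 CPM at 2 h, 32.2 and 29.9 CPM at 4 h, and 19.4 and 15.3 CPM at 8 h. In clone 4 it had 113 CPM at 0 h, 48.0 and 59.3 CPM at 2 h, 32.5 and 29.4 CPM at 4 h, and 10.2 and 11.8 CPM at 8 h. WT had 134, 119, 119 and 116 CPM at 0 h, 40.2, 40.1, 36.5 and 34.7 CPM at 2 h, 20.4, 19.4, 16.9 and 20.3 CPM at 4 h, and 4.28, 3.64, 4.07 and 4.32 CPM at 8 h. Each WT time lay below the one before it without overlap, and at 8 h the WT libraries were the lowest. By edgeR with Benjamini-Hochberg adjustment, the log2 change at 8 h over 4 h was -0.94 in clone 2 (SE 0.140, FDR 1.28e-06), -1.58 in clone 4 (SE 0.151, FDR 2.28e-10) and -2.27 in WT (SE 0.144, FDR 1.90e-15). The change in clone 2 was less negative than that in WT (difference 1.33, SE 0.207, FDR 4.21e-05), and against WT the log2 difference at 8 h was 2.22 in clone 2 (SE 0.162, FDR 2.83e-14) and 1.47 in clone 4 (SE 0.180, FDR 5.48e-08).

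Cyp26b1 (ENSMUSG00000063415.12; chromosome 6, 84571414 to 84593908) had the highest CPM of the members in WT at 0 h, a scale that does not correct for gene length. Clone 2 had 134 and 85.5 CPM at 0 h, 47.5 and 58.1 CPM at 2 h, 14.5 and 15.7 CPM at 4 h, and 4.89 and 3.31 CPM at 8 h. Clone 4 had 241 CPM at 0 h, 86.3 and 100 CPM at 2 h, 42.9 and 42.7 CPM at 4 h, and 20.8 and 19.4 CPM at 8 h. WT had 414, 399, 383 and 370 CPM at 0 h, 167, 160, 140 and 137 CPM at 2 h, 71.0, 91.6, 78.0 and 77.0 CPM at 4 h, and 15.2, 16.6, 16.4 and 16.8 CPM at 8 h. The mean declined at each step in all lines. In the clones at 2 h over 0 h its log2 change was -1.01 in clone 2 (SE 0.150, FDR 2.95e-05) and -1.33 in clone 4 (SE 0.167, FDR 6.59e-06, edgeR with Benjamini-Hochberg adjustment). The later change, 8 h over 4 h, was -1.99 in clone 2 (FDR 1.95e-06), -1.17 in clone 4 (FDR 2.02e-05) and -2.301 in WT (FDR 1.44e-13).

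Cyp26a1 (ENSMUSG00000024987.6; chromosome 19, 37697738 to 37701536) began highest in clone 2. Clone 2 had 748 and 619 CPM at 0 h, 541 and 539 CPM at 2 h, 407 and 417 CPM at 4 h, and 195 and 180 CPM at 8 h. Clone 4 had 349 CPM at 0 h, 208 and 225 CPM at 2 h, 150 and 131 CPM at 4 h, and 79.6 and 73.6 CPM at 8 h. WT had 302, 284, 312 and 326 CPM at 0 h, 169, 160, 167 and 148 CPM at 2 h, 119, 134, 114 and 122 CPM at 4 h, and 43.1, 52.1, 52.6 and 57.7 CPM at 8 h. Every clone 2 library exceeded every WT library of the same time. Its log2 change at 8 h over 4 h was -1.23 in clone 2 (FDR 6.20e-13), -0.96 in clone 4 (FDR 2.29e-09) and -1.27 in WT (FDR 2.74e-16), by edgeR with Benjamini-Hochberg adjustment. At 2 h over 0 h it was -0.65 in clone 4 (FDR 0.000161) and only -0.28 in clone 2 (SE 0.0916, FDR 0.0380), a call lost without either library of 2 h or without replicate 1 of 0 h (-0.13, FDR 0.562) and, with DESeq2, at -0.25 (FDR 0.0672).

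The promoters of the pair of CYP26 genes are shown because these genes fell together and because Cyp26a1 was the only one of the 118 members with a window that held a DR5 retinoic acid response element, a direct repeat at which retinoic acid receptors are known to bind. The windows are from RefSeq on GRCm38.p6, 5′ to 3′ on the strand of the gene (chr19:37697558-37697857, plus strand, and chr6:84593761-84594060, minus strand). Capitals mark that element and the letters TATAAA.
Cyp26a1: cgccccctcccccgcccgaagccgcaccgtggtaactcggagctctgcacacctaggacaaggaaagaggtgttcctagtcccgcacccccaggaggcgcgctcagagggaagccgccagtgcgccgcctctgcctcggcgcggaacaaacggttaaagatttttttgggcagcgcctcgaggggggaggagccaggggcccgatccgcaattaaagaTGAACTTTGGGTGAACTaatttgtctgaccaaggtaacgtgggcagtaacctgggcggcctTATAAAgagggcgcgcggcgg
Cyp26b1: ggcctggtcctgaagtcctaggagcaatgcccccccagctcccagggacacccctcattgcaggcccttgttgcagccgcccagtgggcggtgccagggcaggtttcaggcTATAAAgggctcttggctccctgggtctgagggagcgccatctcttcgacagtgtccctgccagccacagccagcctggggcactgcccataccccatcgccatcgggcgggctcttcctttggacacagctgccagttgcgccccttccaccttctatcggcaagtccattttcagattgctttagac
The element in Cyp26a1 was found on the opposite strand to the one printed. With both strands searched, a DR5 element stood in 0.0974% of all 32851 windows and in 0.0185% of the windows of other genes that passed the filters. The Cyp26b1 window held TATAAA and no DR5 element in these 300 bases. Both sequences are descriptions of the reference, not of binding in these cells.

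The wider list of 28 tested retinoic acid response genes, which includes 5 members, was mostly lower late. At 8 h over 4 h, 17 were lower and 1 higher in clone 2 (median log2 -0.55), 17 lower and 0 higher in clone 4 (-0.52; 1 higher at an unadjusted p under 0.05, 0 with DESeq2) and 19 lower and 2 higher in WT (-0.62), against medians of -0.02, -0.01 and -0.00 for all genes. Of all genes, 20.2% were lower and 17.9% higher in clone 2, 17.2% and 14.0% in clone 4, and 22.9% and 22.4% in WT. The list was drawn up with these data known. At 2 h over 0 h, 5 of the 28 were lower in clone 2 and 7 in clone 4, against 5.81% and 2.75% of all genes. Rarg, a nuclear receptor for retinoic acid and itself a member, was not called in the clones at 8 h over 4 h (log2 0.25, FDR 0.0890 in clone 2, and 0.18, FDR 0.236 in clone 4). It rose in WT, with 45.6, 42.7, 53.3 and 45.3 CPM at 8 h, against 31.3, 28.9, 31.8 and 31.1 CPM at 4 h (log2 0.56, SE 0.0860, FDR 1.74e-06, edgeR with Benjamini-Hochberg adjustment). The difference between clone 2 and WT in this change was not called (-0.30, FDR 0.176).

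**Figure D3:**
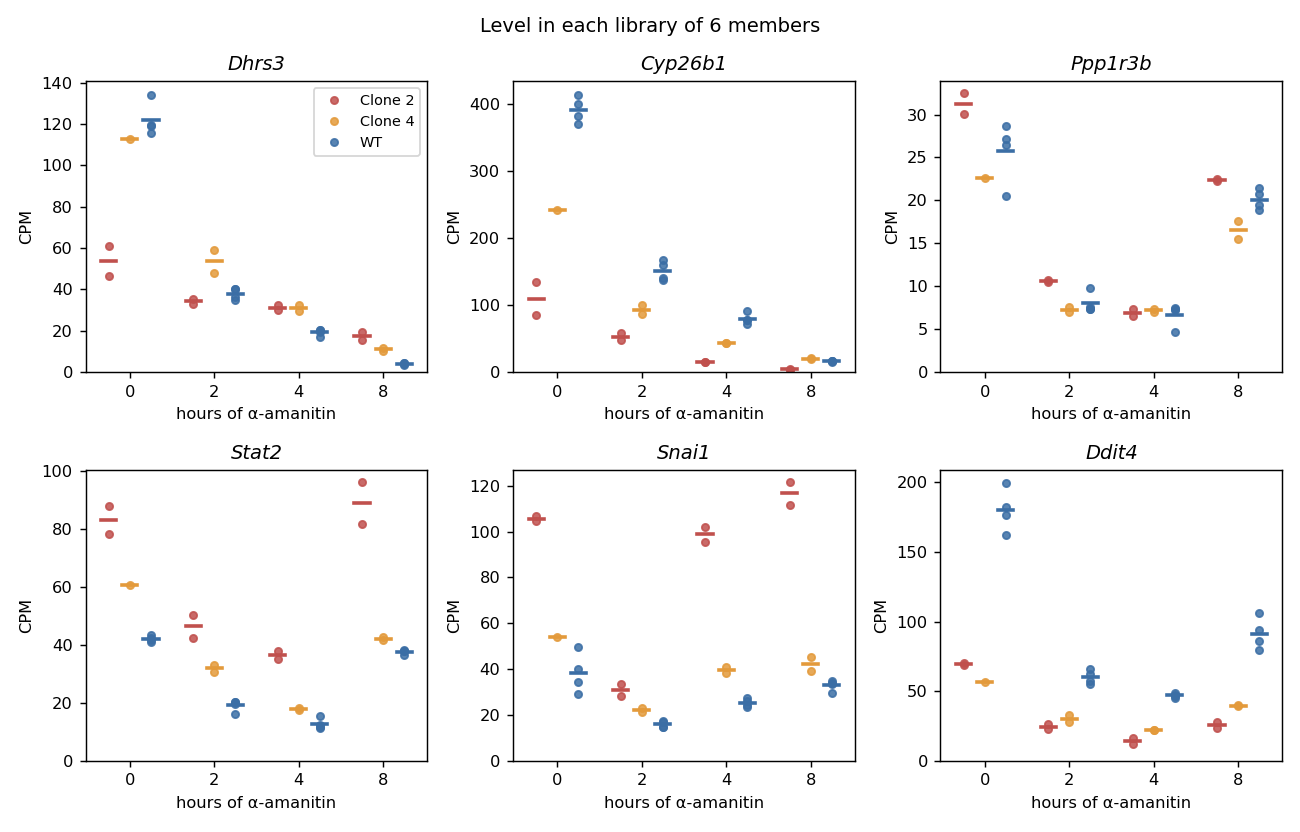
CPM in every library (points; bars are means) against hours of α-amanitin for 6 members, with clone 2, clone 4 and WT side by side at each time. Dhrs3 and Cyp26b1 fall to 8 h, whereas Ppp1r3b and Stat2 are higher at 8 h than at 4 h in each line, and Snai1 and Ddit4 sit at different levels in the lines.

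Many other members came back between 4 h and 8 h. At 8 h over 4 h, edgeR with Benjamini-Hochberg adjustment called 73 members higher and 13 lower in clone 2, where 17.9% of all genes were called higher, 20.2% lower and 38.1% either way. It called 81 higher and 9 lower in clone 4 (14.0%, 17.2% and 31.2% of all genes). In WT it called 102 higher and 9 lower (22.4%, 22.9% and 45.2%). The members' median log2 change was 0.57 in clone 2, 0.65 in clone 4 and 0.61 in WT, against -0.02, -0.01 and -0.00 for all genes tested. Of these calls, 56 of the 73 in clone 2, 46 of the 81 in clone 4 and 87 of the 102 in WT also held in every fit that left out 1 library. The 3 lines shared 58 members called higher and 5 called lower. The share of all genes called alike in all 3 lines is not given here, so these counts are descriptions. The 5 were Dhrs3, Cyp26b1, Cyp26a1, Gas1, a membrane protein that binds hedgehog ligands, and Vegfa, the vascular growth factor, and their median WT level at 0 h was 193 CPM, against 14.6 CPM for the 58. The Gas1 calls were weak in clone 4 (log2 -0.34) and WT (-0.22), and each was lost without some single libraries (clone 4 replicate 1 or 2 of 4 h or 2 of 8 h, FDR 0.183, 0.0911 and 0.369; WT replicate 1 or 2 of 4 h or 2, 3 or 4 of 8 h, FDR 0.0700 to 0.129). In 23 members no line was called, 59 had other patterns, and in 5 (Gata5, Ahdc1, Trib3, Sox7 and Nol4l) lines were called in opposite directions. The median WT levels of these groups at 0 h were 9.01, 11.4 and 82.4 CPM, and that of all 150 members was 13.1 CPM.

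**Figure D4:**
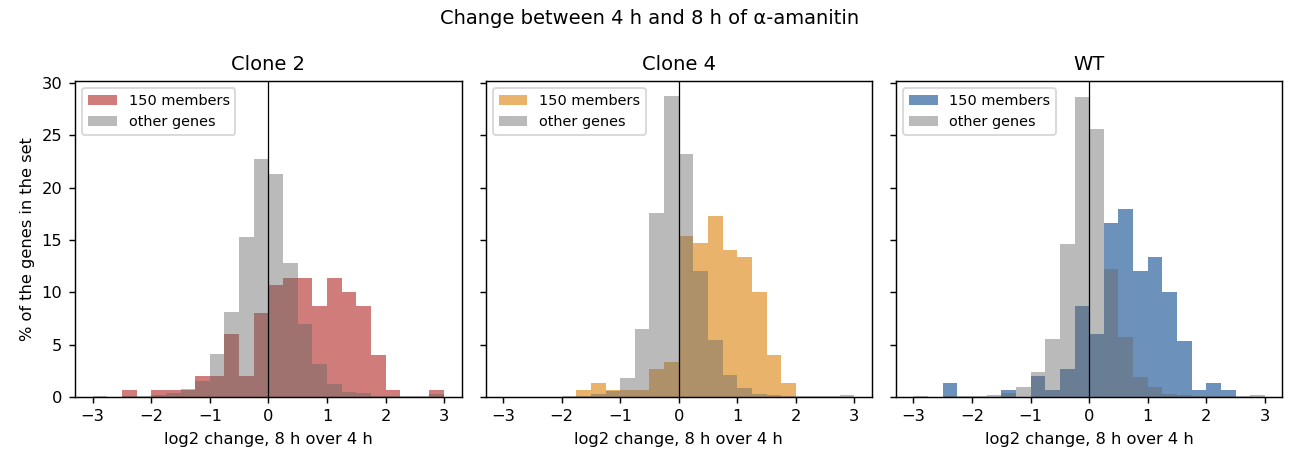
Distribution of the log2 change from edgeR at 8 h over 4 h of α-amanitin, as a percentage of the genes in each set, for the 150 members (coloured) and 10489 other genes (grey) in clone 2, clone 4 and WT; values beyond 3 are drawn in the end bins. The members' bars lie mostly above 0, with medians of 0.57, 0.65 and 0.61, and the other genes centre on 0.

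Ppp1r3b, a glycogen-targeting subunit, fell early in both clones and returned in every line. The gene (ENSMUSG00000046794.9; chromosome 8, 35375694 to 35388139) had 30.0 and 32.5 CPM at 0 h in clone 2, 10.5 and 10.7 CPM at 2 h, 7.38 and 6.50 CPM at 4 h, and 22.2 and 22.5 CPM at 8 h. Clone 4 had 22.6 CPM at 0 h, 7.55 and 6.97 CPM at 2 h, 7.03 and 7.37 CPM at 4 h, and 17.6 and 15.5 CPM at 8 h. WT had 20.5, 26.5, 28.7 and 27.1 CPM at 0 h, 7.32, 9.81, 7.39 and 7.55 CPM at 2 h, 7.37, 4.62, 7.44 and 7.22 CPM at 4 h, and 20.7, 18.8, 21.4 and 19.4 CPM at 8 h. The 3 lines thus ran nearly parallel, and no library of 2 h or 4 h reached the level of any library of 0 h or 8 h. The log2 change at 2 h over 0 h was -1.50 in clone 2 (SE 0.135, FDR 2.28e-10) and -1.60 in clone 4 (SE 0.173, FDR 3.80e-08), by edgeR with Benjamini-Hochberg adjustment. The later change, 8 h over 4 h, was 1.59 in clone 2 (FDR 2.01e-10), 1.12 in clone 4 (FDR 1.30e-06) and 1.49 in WT (FDR 7.16e-13).

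Ppp1r3c (ENSMUSG00000067279.3; chromosome 19, 36731731 to 36736604) was scarcer, with 5 to 282 reads per library, and noisier. Clone 2 had 2.45 and 3.97 CPM at 8 h, against 1.02 and 0.613 CPM at 4 h (log2 1.88, FDR 0.00443), a call lost without replicate 2 of 4 h (1.58, FDR 0.0612) or without replicate 2 of 8 h (1.47, FDR 0.0850). Clone 4 had 1.07 and 2.08 CPM at 8 h, against 0.976 and 0.993 CPM at 4 h, which was not called (log2 0.57, FDR 0.494, edgeR with Benjamini-Hochberg adjustment). WT had 6.58, 11.2, 12.4 and 11.97 CPM at 0 h, 2.24, 1.99, 1.26 and 1.26 CPM at 2 h, 0.905, 1.73, 0.882 and 0.531 CPM at 4 h, and 2.76, 2.73, 7.48 and 5.45 CPM at 8 h. In WT replicates 3 and 4 it was higher at 8 h than in replicates 1 and 2, and all 4 exceeded every library of 4 h (log2 2.35, SE 0.366, FDR 3.60e-06, edgeR with Benjamini-Hochberg adjustment).

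Socs3, an inhibitor that STAT3 induces against its own pathway (ENSMUSG00000053113.3; chromosome 11, 117966079 to 117970336), had the largest fall of any member in both clones. Clone 2 had 12.1 and 10.4 CPM at 2 h, against 57.8 and 58.3 CPM at 0 h, and clone 4 had 15.8 and 13.9 CPM at 2 h, against 60.2 CPM at 0 h. The log2 change was -2.31 in clone 2 (SE 0.139, FDR 7.67e-15) and -1.97 in clone 4 (SE 0.154, FDR 9.59e-12), by edgeR with Benjamini-Hochberg adjustment, and both calls held in every fit that left out 1 library. For clone 4 those fits left out only libraries of 2 h. WT had 52.9, 51.6, 39.5 and 40.4 CPM at 0 h, 17.5, 17.6, 17.1 and 18.9 CPM at 2 h, 18.9, 16.5, 18.03 and 16.6 CPM at 4 h, and 24.4, 21.3, 26.6 and 21.2 CPM at 8 h. In WT the return at 8 h was called but small (log2 0.38, FDR 0.00420), and no WT library of 8 h reached a level seen at 0 h. The lowest level of Socs3 in the clones was at 2 h, with 19.6 and 21.1 CPM in clone 2 and 20.6 and 20.3 CPM in clone 4 at 4 h.

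Stat2, a transcription factor of the interferon response (ENSMUSG00000040033.16; chromosome 10, 128270498 to 128292853), was picked out after its values were seen. Clone 2 had 78.3 and 88.0 CPM at 0 h, 50.4 and 42.5 CPM at 2 h, 37.7 and 35.0 CPM at 4 h, and 81.8 and 96.2 CPM at 8 h. Clone 4 had 60.6 CPM at 0 h, 33.0 and 30.7 CPM at 2 h, 17.4 and 18.3 CPM at 4 h, and 42.6 and 41.6 CPM at 8 h. WT had 42.5, 43.2, 41.6 and 41.1 CPM at 0 h, 19.7, 20.3, 20.4 and 16.1 CPM at 2 h, 15.5, 11.6, 12.2 and 11.4 CPM at 4 h, and 38.1, 37.8, 36.4 and 37.7 CPM at 8 h. Clone 2 exceeded WT at every time, yet the course was alike, with the lowest level at 4 h and a return at 8 h. The log2 change of 8 h over 4 h was 1.20 in clone 2 (FDR 1.26e-11), 1.16 in clone 4 (FDR 1.63e-09) and 1.52 in WT (FDR 1.03e-15, edgeR with Benjamini-Hochberg adjustment). Of the interferon and STAT genes among the members (Ifnlr1, Socs3, Stat2, Bcl3, Irf9 and Helz2), grouped by known function after their values were seen, 4 of 6 were called lower at 2 h in each clone, against 84 and 61 of all 150 members and 5.81% and 2.75% of all genes in clone 2 and clone 4. Irf9 and Helz2 were not called in either.

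Bcl3, a nuclear partner of NF-κB, separated the lines late. It had 13.3 and 12.1 CPM at 8 h in clone 2, against 4.32 and 5.76 CPM at 4 h, 8.63 and 9.84 CPM at 8 h in clone 4, against 5.47 and 4.40 CPM at 4 h, and 6.91, 5.59, 4.59 and 6.02 CPM at 8 h in WT, against 7.11, 8.09, 5.04 and 5.95 CPM at 4 h. In each clone the libraries of 8 h lay above those of 4 h, and in WT they overlapped. The difference between clone 4 and WT missed the threshold (log2 0.96, FDR 0.0523). The change in clone 2 exceeded that in WT by a log2 of 1.41 (SE 0.293, FDR 0.00146, edgeR with Benjamini-Hochberg adjustment), a test that 6.69% of all genes passed with a more negative change and 5.04% with a more positive one.

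Among stress and hypoxia genes the courses diverged. Ddit4 (ENSMUSG00000020108.4; chromosome 10, 59949675 to 59951770) had 68.8 and 69.95 CPM at 0 h in clone 2, 22.7 and 26.2 CPM at 2 h, 16.4 and 12.1 CPM at 4 h, and 23.5 and 28.2 CPM at 8 h. Clone 4 had 56.5 CPM at 0 h, 27.6 and 33.1 CPM at 2 h, 22.4 and 22.0 CPM at 4 h, and 40.0 and 39.1 CPM at 8 h. WT had 183, 200, 176 and 162 CPM at 0 h, 55.2, 62.3, 66.2 and 57.03 CPM at 2 h, 48.8, 46.8, 45.3 and 47.3 CPM at 4 h, and 94.2, 79.2, 106 and 85.8 CPM at 8 h. Both clones lay below WT at every time, and all lines were lowest at 4 h. The log2 change at 8 h over 4 h was 0.77 in clone 2 (FDR 7.37e-05), 0.75 in clone 4 (FDR 4.00e-05) and 0.92 in WT (FDR 2.56e-11), by edgeR with Benjamini-Hochberg adjustment. At 8 h Ddit4 was lower than WT in clone 2 (log2 -1.67, FDR 1.56e-15) as in clone 4 (log2 -1.16, FDR 4.43e-11), again by edgeR with Benjamini-Hochberg adjustment.

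Vegfa (ENSMUSG00000023951.17; chromosome 17, 46016993 to 46032377) did not return. It had 129 and 133 CPM at 8 h in clone 2, against 165 and 170 CPM at 4 h, 84.0 and 88.7 CPM at 8 h in clone 4, against 130 and 122 CPM at 4 h, and 65.3, 65.9, 74.8 and 73.6 CPM at 8 h in WT, against 88.5, 95.1, 86.6 and 77.6 CPM at 4 h. The libraries of 8 h lay below those of 4 h in each line (log2 -0.44, FDR 4.09e-05 in clone 2; -0.63, FDR 3.92e-07 in clone 4; -0.33, FDR 5.10e-05 in WT, edgeR with Benjamini-Hochberg adjustment). Trib3, a pseudokinase of the integrated stress response, had 7.34 and 6.44 CPM at 8 h in clone 2, against 10.6 and 12.02 CPM at 4 h (log2 -0.81, FDR 0.00163), and 5.11, 4.16, 4.46 and 5.57 CPM at 8 h in WT, against 2.85, 3.76, 4.03 and 2.66 CPM at 4 h (log2 0.54, FDR 0.0286). The difference between these changes was itself called (-1.35, SE 0.288, FDR 0.00181).

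The transcription factors among the members differed in level and course between lines. By a grouping made after their values were seen, 22 members are homeobox or other lineage factors, of which 10 were lower at 2 h in clone 2 and 11 in clone 4 (84 and 61 of all 150 members; 5.81% and 2.75% of all genes). At 8 h, 7 in clone 2, 9 in clone 4 and 15 in WT were higher than at 4 h (73, 81 and 102 of all members; 17.9%, 14.0% and 22.4% of all genes). Snai1, a repressor of E-cadherin that drives epithelial cells toward a mesenchymal form (ENSMUSG00000042821.7; chromosome 2, 167538195 to 167542814), had 107 and 104 CPM at 0 h in clone 2, 33.3 and 28.2 CPM at 2 h, 102 and 95.7 CPM at 4 h, and 122 and 112 CPM at 8 h. Clone 4 had 53.9 CPM at 0 h, 22.9 and 21.5 CPM at 2 h, 38.3 and 40.8 CPM at 4 h, and 45.1 and 39.2 CPM at 8 h. WT had 49.8, 40.0, 29.3 and 34.2 CPM at 0 h, 17.2, 16.9, 14.9 and 14.8 CPM at 2 h, 26.0, 24.3, 27.2 and 23.7 CPM at 4 h, and 29.7, 33.4, 34.8 and 33.8 CPM at 8 h. Unlike the median member, Snai1 was lowest at 2 h in every line, and its clone 2 libraries of 4 h were near those of 0 h. The log2 change at 2 h over 0 h was -1.72 in clone 2 (SE 0.132, FDR 1.05e-11) and -1.23 in clone 4 (SE 0.165, FDR 3.48e-06), by edgeR with Benjamini-Hochberg adjustment.

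Sox7, a factor of endoderm and blood vessel precursors (ENSMUSG00000063060.6; chromosome 14, 63943706 to 63950732), had 417 and 395 CPM at 0 h in clone 2, 147 and 160 CPM at 2 h, 302 and 291 CPM at 4 h, and 322 and 336 CPM at 8 h. Clone 4 had 217 CPM at 0 h, 123 and 109 CPM at 2 h, 155 and 169 CPM at 4 h, and 135 and 120 CPM at 8 h. WT had 103, 110, 121 and 125 CPM at 0 h, 58.2, 58.0, 60.1 and 55.8 CPM at 2 h, 56.9, 77.2, 68.2 and 62.6 CPM at 4 h, and 67.4, 78.6, 75.7 and 87.5 CPM at 8 h. Sox7 too was lowest at 2 h in each line by its mean, and the clones exceeded WT at every time. At 2 h over 0 h its log2 change was -1.34 in clone 2 (SE 0.0947, FDR 5.65e-13) and -0.86 in clone 4 (SE 0.114, FDR 2.15e-06). Against WT at 8 h it differed by a log2 of 2.23 in clone 2 (SE 0.0807, FDR 5.78e-23) and 0.77 in clone 4 (SE 0.0853, FDR 7.14e-09, edgeR with Benjamini-Hochberg adjustment). The opposite late calls of Sox7 (log2 -0.43, FDR 0.000902 in clone 4; 0.21, FDR 0.0219 in WT) rest on a weak WT change that lost its call without replicate 1 or 4 of 4 h (FDR 0.141 and 0.0550) or replicate 2 or 4 of 8 h (FDR 0.0507 and 0.134). The difference of the changes was -0.64 (FDR 0.00216). Sox7 is itself on the list of parietal endoderm markers, whose sum at 0 h followed the same order of lines, and the part of those cells in the result was not tested.

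Tbx2, a T-box repressor (ENSMUSG00000000093.6; chromosome 11, 85832615 to 85841948), was nearly absent from clone 2, with 3.61 and 3.24 CPM at 0 h, 3.82 and 3.18 CPM at 2 h, 1.36 and 2.94 CPM at 4 h, and 1.11 and 1.04 CPM at 8 h. Clone 4 had 36.9 CPM at 0 h, 16.8 and 19.3 CPM at 2 h, 12.1 and 10.8 CPM at 4 h, and 23.1 and 17.0 CPM at 8 h. WT had 133, 105, 91.6 and 76.8 CPM at 0 h, 39.6, 41.0, 35.2 and 36.5 CPM at 2 h, 27.5, 30.1, 29.4 and 29.2 CPM at 4 h, and 38.3, 38.1, 38.8 and 39.5 CPM at 8 h. The 3 lines did not overlap at any time. In clone 2 no fall at 2 h was detectable (log2 0.08, SE 0.310, FDR 0.930), whereas against WT the log2 difference at 8 h was -5.01 in clone 2 (SE 0.274, FDR 5.58e-16) and -0.90 in clone 4 (SE 0.159, FDR 6.32e-05, edgeR with Benjamini-Hochberg adjustment).

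Among the members that returned furthest were transcripts of mixed function. Dnajc28, a member of the DnaJ cochaperone family (ENSMUSG00000039763.10; chromosome 16, 91614257 to 91618999), had 5.56 and 5.11 CPM at 8 h in clone 2, against 1.70 and 1.35 CPM at 4 h (log2 1.70, FDR 7.37e-06). Clone 4 had 4.90 and 6.60 CPM at 8 h, against 1.66 and 2.27 CPM at 4 h (1.49, FDR 4.25e-05), and WT had 7.73, 7.67, 7.35 and 5.45 CPM at 8 h, against 1.81, 1.45, 1.26 and 1.70 CPM at 4 h (2.11, SE 0.202, FDR 9.51e-11, edgeR with Benjamini-Hochberg adjustment). At 0 h the libraries held 4.72 and 5.73 CPM in clone 2, 5.75 CPM in clone 4 and 6.58 to 7.75 CPM in WT, so the levels of 8 h were close to those of 0 h in each line.

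Thap2, which carries a THAP zinc finger (ENSMUSG00000020137.5; chromosome 10, 115368398 to 115384435), had 18.8 and 21.6 CPM at 8 h in clone 2, against 7.04 and 4.29 CPM at 4 h (log2 1.73, FDR 3.80e-09). Clone 4 had 29.4 and 25.7 CPM at 8 h, against 10.9 and 10.8 CPM at 4 h (1.26, FDR 3.09e-07), and WT had 36.7, 33.5, 38.1 and 29.8 CPM at 8 h, against 6.98, 7.23, 7.94 and 9.46 CPM at 4 h (2.06, SE 0.128, FDR 8.96e-16, edgeR with Benjamini-Hochberg adjustment). The WT libraries of 8 h were all above those of 0 h, which held 19.7 to 27.8 CPM. Pnma2, which encodes a retrotransposon-derived Gag-like protein (ENSMUSG00000046204.14; chromosome 14, 66901589 to 66920063), had 5.56 and 5.87 CPM at 8 h in clone 2, against 1.93 and 2.21 CPM at 4 h (1.37, FDR 5.88e-05). Clone 4 had 17.4 and 15.7 CPM at 8 h, against 5.27 and 3.69 CPM at 4 h (1.76, FDR 3.51e-09), and WT had 23.3, 20.0, 20.2 and 16.8 CPM at 8 h, against 6.08, 4.05, 5.80 and 6.06 CPM at 4 h (1.77, FDR 1.75e-13). At 0 h Pnma2 held 5.83 and 6.58 CPM in clone 2, 8.98 CPM in clone 4 and 14.2 to 20.0 CPM in WT. Clone 4 thus ended above its start (log2 0.88, FDR 0.000725 at 8 h over 0 h).

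The remaining groups of known function, also drawn up after the values were seen, held 9 zinc finger and THAP genes, 10 ubiquitin ligase, F-box and TRIM genes, 8 of cell cycle and apoptosis, 11 synaptic and neuronal genes, 7 mitochondrial and peroxisomal genes and 4 surface receptors. At 8 h over 4 h all 7 mitochondrial and peroxisomal genes were higher in clone 2, 6 in clone 4 and 7 in WT. Of the 9 zinc finger and THAP genes, 6 were higher in clone 2, 8 in clone 4 and 8 in WT. The other groups had lower shares in most lines. In clone 2, clone 4 and WT, 5, 6 and 7 of the 10 ubiquitin ligase, F-box and TRIM genes were higher. For the 8 genes of cell cycle and apoptosis the counts were 5, 4 and 6. For the 11 synaptic and neuronal genes they were 4, 4 and 6, and for the 4 surface receptors 1, 3 and 3. Over all 150 members these counts were 73, 81 and 102, and over all genes the shares were 17.9%, 14.0% and 22.4%. A further 61 members were put in no such group.

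Ahnak2, a giant scaffold protein gene, passed its starting level in both clones. It had 19.7 and 21.2 CPM at 8 h in clone 2, against 9.06 and 7.48 CPM at 0 h (log2 1.34, SE 0.179, FDR 1.33e-06), and 64.8 and 72.6 CPM at 8 h in clone 4, against 31.9 CPM at 0 h (1.10, SE 0.184, FDR 6.86e-05, edgeR with Benjamini-Hochberg adjustment). WT libraries of 8 h held 55.5, 55.2, 55.9 and 64.7 CPM, within the 39.02 to 66.6 CPM seen at 0 h. Over all members, 9 were higher and 55 lower at 8 h than at 0 h in clone 2, where 12.6% of all genes were higher, 15.8% lower and 28.4% either. In clone 4, 7 were higher and 43 lower (8.57%, 10.9% and 19.5%). Without replicate 1 of 8 h the clone 2 total of 64 became 42. At least 90% of the 0 h level was reached at 8 h by 51 members in clone 2, 66 in clone 4 and 34 in WT, and 35, 19 and 39 were still under 50%, values that in WT rest on the libraries of the ranking.

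The clones differed from WT in many members, as they did in many genes. At 4 h, 26 members were higher and 54 lower in clone 2 than in WT, where 28.1% of all genes were called higher, 26.6% lower and 54.7% either way. In clone 4, 25 were higher and 35 lower (20.3%, 18.6% and 38.9%). At 8 h, 38 were higher and 58 lower in clone 2 (26.2%, 27.0% and 53.2%). In clone 4, 20 were higher and 29 lower (13.3%, 12.2% and 25.6%), and the total of 49 became 32 without replicate 1 of 8 h. Both clones share the WT libraries in these comparisons. The share of all genes called alike in both clones at both times is not given here, so the names that follow are a description. Called higher in both at both times were Dhrs3, Snai1, Trib3, Sox7, Cyp26a1, Pdzd3, Irf9, Helz2 and Vegfa, and called lower were Ddit4, Dlx3, Tbx2, Gas1, Sall2, Bcl7a, Wdr86, Rnf43, Zkscan2, Abhd11os, Zbtb5 and Nol4l. Helz2, an interferon-responsive helicase gene, had 74.4 and 93.0 CPM at 8 h in clone 2 and 24.9 and 24.5 CPM in clone 4, against 11.6, 13.0, 12.2 and 14.1 CPM in WT (log2 2.86, FDR 4.01e-22 in clone 2 and 1.00, FDR 1.77e-07 in clone 4, edgeR with Benjamini-Hochberg adjustment). Abhd11os lies antisense to Abhd11, and since the strand setting of the counting is not given in the sources used here, reads of the pair cannot be told apart.

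The late change itself differed from WT in 13.3% of members in clone 2 and 6.67% in clone 4. These shares are near those of all genes. At 8 h over 4 h, 8 members changed more positively and 12 more negatively in clone 2 than in WT, where 5.04% and 6.69% of all genes did (11.7% either way). In clone 4 the counts were 4 and 6 (2.79%, 2.87% and 5.66%). Without 1 library these totals of 20 and 10 ranged from 12 (without clone 2 replicate 1 of 8 h; 13 without clone 2 replicate 2 of 4 h) to 25, and from 5 (without clone 4 replicate 2 of 4 h or of 8 h; 6 without replicate 1 of 4 h) to 14. Across the 150 members the log2 changes at 8 h over 4 h had a Pearson r of 0.67 between clone 2 and WT, 0.68 between clone 4 and WT and 0.68 between clone 4 and clone 2, given as a description over members that are not independent.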

How the data were processed

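Each of the 4 deposited RNA-seq tables holds, per the file headers, raw gene counts of the libraries of 1 time point and the gene length in bases (a value of another kind). The tools and builds listed by the submitters' processing notes are GRCm38 and mm10, Cuffdiff, Cufflinks, DESeq2, TopHat, STAR 2.4.0.1 and FastQC 0.11.9. The counting program and its strand setting are not given in those sources. Of 51520 lines, 110 repeats were dropped. The clone 4 replicate 1 sample of 0 h has no column and was not analysed here. From the authors' RNA immunoprecipitation only 2 deposited symbol lists (other, with no values) were used.

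Groups follow the labels. Changes were tested with edgeR 4.0.16 under R 4.3.3 (filterByExpr, TMM scaling, robust quasi-likelihood fit) in 1 fit of 31 libraries and 12 groups of line and time (19 residual degrees of freedom), with Benjamini-Hochberg FDR under 0.05 over 15850 genes; all 150 members passed the filter. SE is the log2 change over the square root of F. DESeq2 1.42.0 was an alternative. The code was tested on simulated data. The members, gene lists and tests were chosen with earlier results of these data known. Named members are the 20 with the lowest ratio, 5 on each side of the border, members on a list, the 5 called members with the largest change each way in a comparison, the 5 with the highest and lowest WT ratio of 8 h over 2 h, and the 5 most abundant; Stat2 and other members of role groups were added after their values were seen. No paired analysis is given beside results because most same-numbered libraries showed no correlation over 0.1 (11 of 42 did). A fit with the replicate number as a block is given at the end.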

Additional observations from a re-analysis of the deposited data

Results flagged for a closer look

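Of 76 WT groups of 4 libraries examined for the members plotted or described, 6 held a library farther from the other libraries than Dixon's 95% limit allows, and chance gives about 1 in 20. Ppp1r3b had 9.81 CPM in WT replicate 2 at 2 h, against 7.32 to 7.55 CPM in the other libraries, and 4.62 CPM in WT replicate 2 at 4 h, against 7.22 to 7.44 CPM. Dnajc28 had 5.45 CPM in WT replicate 4 at 8 h, against 7.35 to 7.73 CPM. Pnma2 had 14.2 CPM in WT replicate 1 at 0 h, against 19.2 to 20.0 CPM, and 4.05 CPM in WT replicate 2 at 4 h, against 5.80 to 6.08 CPM. Stat2 had 16.1 CPM in WT replicate 4 at 2 h, against 19.7 to 20.4 CPM. WT replicate 2 at 4 h was the shallowest library, with 3460172 counts, and the part of depth was not tested.

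The following members changed differently between lines by a direct test with edgeR and Benjamini-Hochberg adjustment, each value being the difference of log2 changes. Ccnjl differed between clone 4 and clone 2 at 2 h over 0 h (-1.33, FDR 0.0473). At 8 h over 4 h, clone 2 was more negative than WT for Gata5 (-3.23, FDR 0.0111), Dlx3 (-1.37, FDR 0.0143), Trib3 (-1.35, FDR 0.00181), Atoh8 (-1.33, FDR 0.0440) and Ciart (-1.28, FDR 0.0180). It was more positive for Efna1 (1.08, FDR 0.00845), Dhrs3 (1.33, FDR 4.21e-05), Bcl3 (1.41, FDR 0.00146), Lmntd2 (1.46, FDR 0.00664) and Trim7 (1.48, FDR 0.0145). Clone 4 was more negative than WT for Atoh8 (-1.38, FDR 0.0122), Rab3a (-1.25, FDR 0.0111), Mkx (-0.86, FDR 0.0278), Thap2 (-0.80, FDR 0.0236) and Synpo (-0.70, FDR 0.0274). It was more positive for AC149090.1 (0.56, FDR 0.00524), Ahnak2 (0.78, FDR 0.0228), Cyp26b1 (1.13, FDR 0.00531) and Snhg11 (1.20, FDR 0.000388). Many of these calls were lost without 1 library. Thap2 lost its call without clone 4 replicate 1 or 2 of 4 h, clone 4 replicate 2 of 8 h or WT replicate 1 of 4 h (FDR 0.0576 to 0.107), and Ahnak2 without clone 4 replicate 2 of 4 h (FDR 0.184) or of 8 h (FDR 0.102). For clone 2 against WT, calls were lost for Gata5 without clone 2 replicate 2 of 4 h (FDR 0.0830) or replicate 1 of 8 h (0.0716), and for Dlx3 without the same libraries (0.131 and 0.111). Ciart lost its call without any of the 4 clone 2 libraries of 4 h and 8 h (0.0523 to 0.0720), Efna1 without clone 2 replicate 1 of 4 h (0.0656), Lmntd2 without the same library (0.0511), and Trim7 without it (0.143) or without replicate 2 of 8 h (0.0515). Atoh8 lost its call in clone 2 without any of 7 libraries (up to 0.206), and in clone 4 without replicate 1 of 4 h (0.0968) or replicate 2 of 8 h (0.0611). For clone 4 against WT, Rab3a lost its call without clone 4 replicate 1 of 4 h (0.0675), AC149090.1 without clone 4 replicate 2 of 4 h (0.0596), Mkx without any of 4 libraries (up to 0.171) and Synpo without any of 6 (up to 0.138). Dhrs3, Trib3, Bcl3, Snhg11 and Cyp26b1 kept theirs in every such fit, but Cyp26b1 lost it with WT replicates 1 and 2 only (0.0943) or 3 and 4 only (0.0898).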

How the results depend on the processing

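The alternatives were library totals without TMM factors, DESeq2's size factors in edgeR, a filter of only 10 counts, DESeq2, the mitochondrial genes left out, WT replicates 1 and 2 or 3 and 4 only, each library left out, and a replicate block. Of 2340 alternative values for 192 tests of single members, 2199 kept their direction and their side of the threshold, 129 lost their call, 8 gained one and 4 changed sign, none of these 4 being called. Those were Snai1 in clone 4 at 8 h over 4 h, at -0.0194 with the filter of 10 counts and, without 1 library, between -0.0946 and 0.11 (0.01 with all), and Tbx2 in clone 2 at 2 h over 0 h, between -0.0672 and 0.21 (0.08 with all).

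The single member that differed between clone 4 and clone 2 became 0 with library totals, with the filter of 10 counts and with DESeq2. Members whose late change differed between clone 4 and WT numbered 16 with WT replicates 1 and 2 only, against 10. Without 1 library, calls at 2 h over 0 h numbered 50 to 67 in clone 2, 37 in clone 4 and 0 to 1 for their difference. Calls at 8 h over 0 h in clone 2 numbered 42 to 49, calls of clone 4 against WT at 8 h 32 to 49, and differences in the late change 12 to 25 for clone 2 and 5 to 14 for clone 4. The set kept 96 of its 150 members at a level filter of 10 CPM, and 95 with WT replicates 3 and 4 alone, a choice made after seeing the data, which dropped Gata5 and Fbxl8. The causes were not tested.

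With the replicate number as a block, 87 members were called at 2 h over 0 h in clone 2, 63 in clone 4 and 111 at 8 h over 4 h in WT, and the count of no comparison moved by over 1.5 times. It ended 1 call of a single member (Pnma2 in clone 2 at 2 h over 0 h, FDR 0.0504) and gave 1 (Rarg in clone 4, FDR 0.0457). Same-numbered libraries correlated between -0.13 and 0.48, with 11 of 42 pairs over 0.1. With 2 libraries in a clone group the deviations mirror each other, so each clone value enters the 42 as 2 equal values. The count therefore cannot settle whether the numbers pair the libraries.

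A single library of clone 4 at 0 h and pairs in the clones limit what can be detected, and scarce members such as Ppp1r3c rest on as few as 5 reads.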
